A study of Mus musculus with 4 samples.

Results

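Slc14a1, Prkg2, Upp1, Tinagl1, Ucn2, Phlda1 and Lif are 7 genes that were bright in an NRAS-driven mouse melanoma kept on doxycycline and much dimmer 48 and 72 h after the drug was withdrawn. They were chosen by their intensities on those arrays, and found by symbol in the platform annotation, out of 18193 genes with a single-symbol probe set on the array, and all of their 11 probe sets are described. Because the arrays on doxycycline and at 48 and 72 h made the choice, their values describe it and carry no test.

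The tumours grew from iNRAS-475, a mouse melanoma line with doxycycline-inducible NRAS, placed in the dermis of nude mice that drank water with 2 mg/ml doxycycline for 6 weeks, until tumours measured 200 to 500 mm3. There were 4 arrays: 1 tumour kept on doxycycline, the control, and 1 tumour each taken 24, 48 and 72 h after withdrawal. The cells come from a single line, and nude mice largely lack mature T cells but keep macrophages and other innate immune cells. All the animals received the drug during growth, and the loss of doxycycline and the loss of NRAS cannot be told apart. With 1 tumour per group there is no replicate error, the time cannot be told apart from the animal or the piece sampled, and precision is limited by how few arrays there are.

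NRAS is a small GTPase that switches on the kinases RAF, MEK and ERK, and ERK in turn raises the activity of ETS factors and of AP-1, a dimer of FOS and JUN proteins. The 7 genes act in different places. Slc14a1 encodes a urea transporter of the cell membrane, Upp1 uridine phosphorylase, which splits uridine into uracil and a ribose phosphate, and Prkg2 a membrane-bound kinase activated by cyclic GMP. Tinagl1 encodes a secreted matrix-associated protein that binds integrins, Ucn2 the peptide hormone urocortin 2 and Lif a cytokine of the interleukin-6 family. Phlda1 encodes an intracellular protein with a pleckstrin homology-like domain and is commonly used as a readout of ERK activity.

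Promoter sequence was at hand for 3 of the genes, and 1 window each is shown because each holds the AP-1 consensus TGANTCA, marked in capitals. The windows run from 250 bases before to 50 bases after an annotated gene start and come from RefSeq, build GRCm38.p6. That of Lif is chr11:4257318-4257617 on the plus strand, that of Upp1 is chr11:9117758-9118057 on the plus strand and that of Tinagl1 is chr4:130175073-130175372 on the minus strand.
Lif: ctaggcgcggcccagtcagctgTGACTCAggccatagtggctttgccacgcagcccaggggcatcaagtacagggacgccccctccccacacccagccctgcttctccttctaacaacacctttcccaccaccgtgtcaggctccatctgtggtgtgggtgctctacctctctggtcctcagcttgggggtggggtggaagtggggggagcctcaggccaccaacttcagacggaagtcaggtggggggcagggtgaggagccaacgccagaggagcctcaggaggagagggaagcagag
Upp1: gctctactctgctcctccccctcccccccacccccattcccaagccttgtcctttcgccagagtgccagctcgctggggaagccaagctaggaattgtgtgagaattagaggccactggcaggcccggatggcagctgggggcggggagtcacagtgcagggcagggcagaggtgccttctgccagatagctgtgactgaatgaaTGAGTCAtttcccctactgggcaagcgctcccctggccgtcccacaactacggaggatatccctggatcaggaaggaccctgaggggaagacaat
Tinagl1: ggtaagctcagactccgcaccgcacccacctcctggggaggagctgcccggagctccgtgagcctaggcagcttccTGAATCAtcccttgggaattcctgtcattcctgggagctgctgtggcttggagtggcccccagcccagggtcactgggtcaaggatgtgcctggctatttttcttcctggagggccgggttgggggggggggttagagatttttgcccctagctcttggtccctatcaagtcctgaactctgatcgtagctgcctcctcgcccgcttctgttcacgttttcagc

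The match begins 228 bases before the start in Lif, 45 in Upp1 and 174 in Tinagl1. The table lists 6 windows for these genes; a further Upp1 window overlaps the one shown and holds the same match, and the remaining Upp1 and Tinagl1 windows, at other starts, hold none. TGANTCA reads the same on both strands and occurs in 7.81% of all 32851 windows, and 8.97% of all genes have at least 1 window with it. The ETS core GGAAGT, searched on both strands, occurs at 2 places in the Lif window and in none of the others, against 23.8% of all windows, and it does not overlap the AP-1 match. The cyclic AMP response element TGACGTCA is in none of the 6 windows, against 1.79% of all windows. These motifs were picked after the windows had been read, and a match is a description of the letters, not of binding.

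Intensities are the deposited values on a linear scale. Differences are off minus on and were taken after adding 32 to each intensity and converting to log2, so those of dim probe sets come out too small. A gene is called 2-fold lower where the difference is -1 or below. The median over all probe sets was 33.4 for the control, then 33.3 (24 h), 34.0 (48 h) and 33.8 (72 h). All 7 genes passed the filter on low values, together with 13525 genes in all. In these bulk samples fewer tumour cells and less RNA per cell cannot be told apart.

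Among the transporter and enzyme genes, Slc14a1 had the lowest difference of all 13525 genes, each by its brightest probe set, at both 48 and 72 h. Its brighter probe set had an intensity of 2291 on doxycycline, then 2095 (24 h), 227 (48 h) and 61.3 (72 h). The other probe set read 789, 785, 88.5 and 29.3 on the same arrays, ending just under the array median. Both were close to control at 24 h and lower in each of the later steps. The brighter one was at 9.92% of its control intensity at 48 h and 2.68% at 72 h, the other at 11.2% and 3.71%. Differences were -0.13, -3.16 and -4.64 at 24, 48 and 72 h for the brighter probe set and -0.01, -2.77 and -3.74 for the other.

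Upp1 followed Slc14a1 to 48 h and then levelled out. Its single probe set read 660 on doxycycline, then 632 (24 h), 75.1 (48 h) and 46.4 (72 h). At 72 h 7.03% of the control intensity was left, and 85.7% of the log2 difference at 72 h was already present at 48 h. Differences were -0.06, -2.69 and -3.14, the fifth lowest of all genes at 48 h and the ninth lowest at 72 h.

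Prkg2 was later, and most of the difference of its bright probe sets appeared between 48 and 72 h. The brightest of its 3 probe sets read 5274 on doxycycline, then 5328 (24 h), 1623 (48 h) and 251 (72 h). A second bright one read 3707, 3969, 897 and 118. These probe sets moved alike: at 72 h they were at 4.75% and 3.18% of control, with differences of -4.23 and -4.64. The dimmest, at 351, 221, 124 and 59.98, was already at 63.1% at 24 h and ended at 17.1%, a difference of -2.06. At 48 h the brightest had reached 39.7% of its log2 difference at 72 h, the lowest share among the 7 genes.

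**Figure D1:**
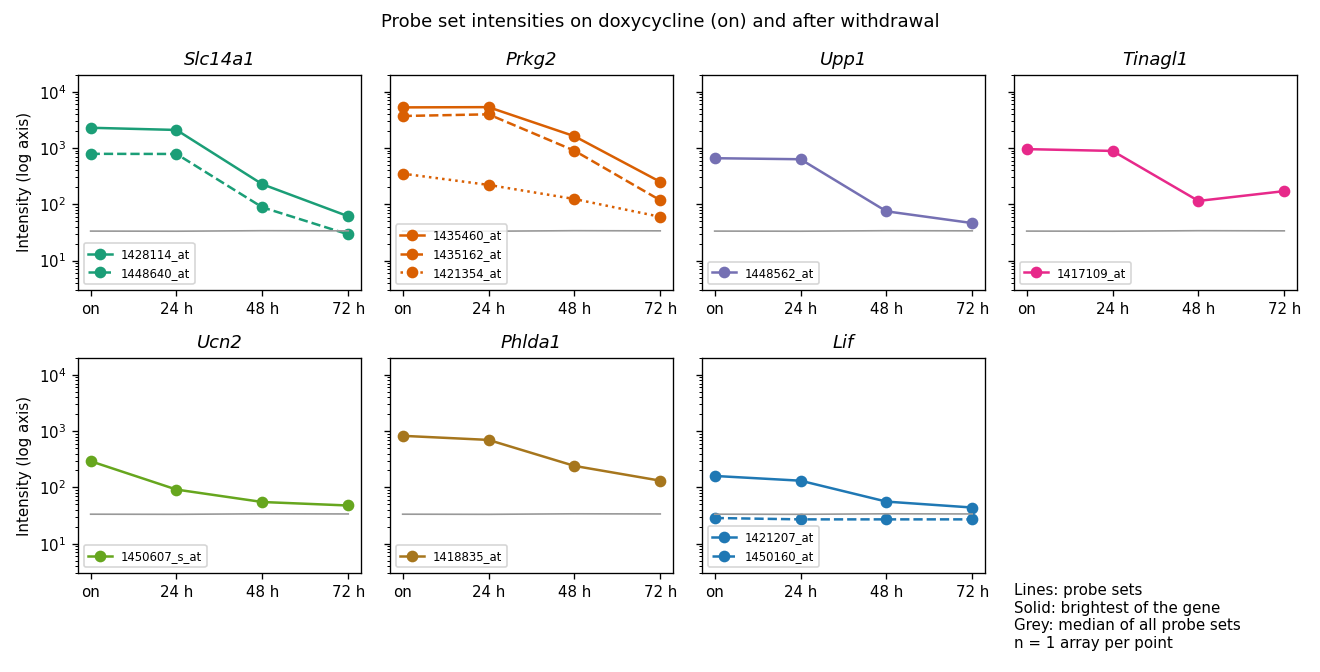
Intensity (log axis) of each probe set of the 7 genes on doxycycline and 24, 48 and 72 h after withdrawal, 1 array per point, with the median of all probe sets in grey. The Slc14a1 probe sets were at 61.3 and 29.3 at 72 h, Tinagl1 was lowest at 48 h at 115, Ucn2 was already at 91.6 at 24 h, and the dim Lif probe set lay near 27 to 29 throughout.

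Of the secreted products, Tinagl1 alone was higher at 72 h than at 48 h. Its probe set read 956 on doxycycline, then 889 (24 h), 115 (48 h) and 172 (72 h). Intensity at 72 h was 149% of that at 48 h, and 17.9% of that on doxycycline. Differences were -0.10, -2.75 and -2.28 in turn.

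Ucn2 was the only gene of the 7 that was 2-fold lower at 24 h, on an array that the choice of genes did not use, although the control it is set against was used. Its probe set read 292 on doxycycline, then 91.6 (24 h), 55.0 (48 h) and 47.7 (72 h). Differences were -1.39, -1.90 and -2.02, so 68.8% of the log2 difference at 72 h was present at 24 h. At 24 h it had the second lowest difference of all genes. This probe set carries the suffix _s_at, which marks probes that can match more than 1 transcript.

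Lif had the smallest differences of the 7 genes at 48 and 72 h, and they rest on 1 of its 2 probe sets. The brighter read 160 on doxycycline, then 132 (24 h), 56.0 (48 h) and 43.9 (72 h). The other read 28.6 on doxycycline and 27.1 on each of the other arrays. Only the brighter showed a course, with differences of -0.23, -1.13 and -1.34; the other, below the array medians on every array, stayed at -0.04. With the mean over both probe sets Lif was at -0.58 at 48 h and -0.69 at 72 h and was no longer 2-fold lower.

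Phlda1 was lower on each later array than on the one before. Its probe set read 825 on doxycycline, then 698 (24 h), 241 (48 h) and 132 (72 h), where 16.0% of the control intensity was left. Differences were -0.23, -1.65 and -2.39, the last of them the median of the 7 genes at 72 h.

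Set beside all genes, the 7 stood at the low end at 48 and 72 h, as their choice required, but not at 24 h. At 24 h 1 of 7 was 2-fold lower, against 0.0665% of all genes. The median of the 7 was then -0.13, against 0.00 over all genes, and apart from Ucn2 they lay between -0.23 and 0.01, within the -0.37 to 0.47 that held 95% of all genes. All 7 were 2-fold lower at 48 h and at 72 h, against 1.04% and 1.6% of all genes, with medians of -1.90 and -2.39. The rule has no numerical threshold, and other genes were as low: 90 that were not chosen lay at or below Lif at 48 h, and 104 at 72 h.

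**Figure D2:**
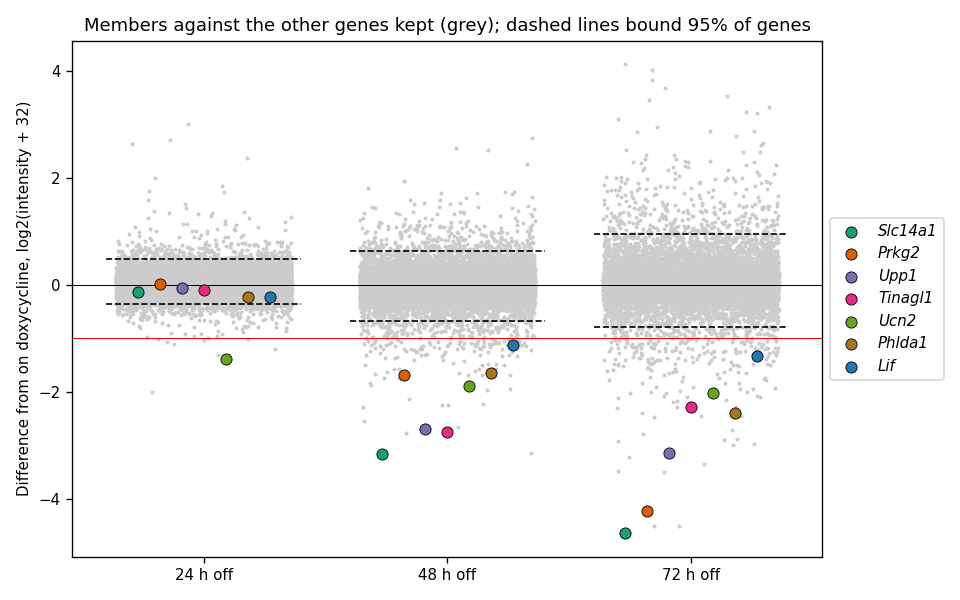
Difference from the control on the log2(intensity + 32) scale at 24, 48 and 72 h for the 7 genes (coloured) and all other genes kept (grey); dashed lines bound 95% of genes and the red line marks a difference of -1. At 24 h Ucn2 alone lies below the red line, at -1.39; at 72 h the 7 genes lie between -4.64 and -1.34.

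The steps between the arrays off doxycycline do not use the control. They do use the 48 and 72 h arrays, on which the 7 were chosen, so low values there describe the choice. Within the 7, the steps separated the genes by timing. From 24 to 48 h 5 of 7 were 2-fold lower, against 0.998% of all genes; the exceptions were Lif at -0.90, which passed the line with a pseudocount of 8 (-1.13) or none (-1.23), and Ucn2 at -0.51. Slc14a1, Tinagl1 and Upp1 had the lowest differences of the 7 in this step, at -3.04, -2.65 and -2.63, followed by Prkg2 at -1.70 and Phlda1 at -1.42. From 48 to 72 h 2 of 7 were 2-fold lower, Prkg2 at -2.55 and Slc14a1 at -1.47, against 0.207% of all genes. Phlda1 was at -0.74, Upp1 at -0.45, Lif at -0.21, Ucn2 at -0.13 and Tinagl1 at 0.47. Over both steps, from 24 to 72 h, 6 of 7 were 2-fold lower, against 1.83% of all genes, and Ucn2 was at -0.63.

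**Figure D3:**
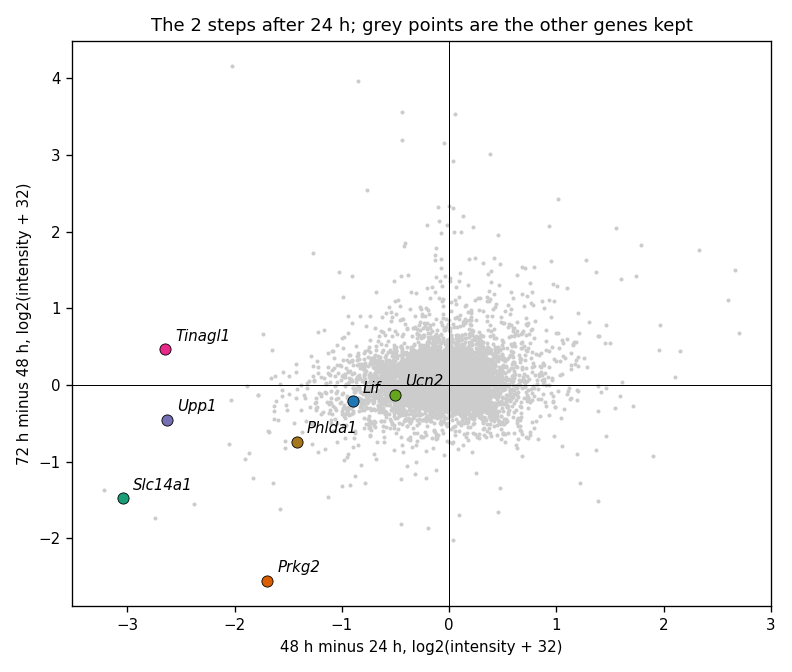
Difference between 48 and 24 h (x axis) and between 72 and 48 h (y axis) on the log2(intensity + 32) scale for the 7 genes (labelled) and all other genes kept (grey), from the arrays off doxycycline alone. Prkg2 is lowest in the later step at -2.55, Slc14a1 in the earlier one at -3.04, and Tinagl1 is the only one of the 7 above 0 on the y axis.

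The genes whose courses over the 4 arrays came nearest to the 7 were found by the Euclidean distance between mean-centred log2 profiles, with no test. Nearest to the median course of the 7 were Hbegf, an EGF receptor ligand (distance 0.37), the calcium-activated potassium channel gene Kcnn4 (0.40), the kallikrein Klk8 (0.40), the metalloprotease inhibitor Timp1 (0.44) and the asparagine synthetase Asns (0.45). Kcnn4, for example, read 911 on doxycycline, then 906 (24 h), 260 (48 h) and 160 (72 h). Slc14a1 was nearest to the chromatin gene Hmga2 (0.17), Prkg2 to the R-spondin receptor Lgr6 (0.77), and both Upp1 and Tinagl1 to the kallikrein Klk10 (0.37 and 0.60). Klk10 read 478, 358, 48.4 and 33.3 over the 4 arrays. Ucn2 was nearest to the syndecan Sdc4 (0.48), Phlda1 to Hbegf (0.09) and Lif to Fdft1, which encodes squalene synthase (0.05). Among the 7 themselves the closest pair was Upp1 and Tinagl1 (0.78) and the furthest Slc14a1 and Ucn2 (2.89).

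Most other genes of the pathways in which the 7 act stayed near the control, but a larger share of them than of all genes was 2-fold lower at 48 and 72 h. These lists were chosen with earlier results of these data known. Over 7 such lists, 70 genes that are not among the 7 passed the filter on low values. Of these, 0 were 2-fold lower at 24 h, 6 (8.57%) at 48 h and 7 (10%) at 72 h, against 0.0665%, 1.04% and 1.6% of all genes. With the mean over probe sets the later counts were 3 and 4, and with a pseudocount 4 times as large 2 and 4. Their median differences were 0.00, -0.04 and 0.00 in turn, against 0.00 over all genes at each time.

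In the list of urea transport and arginine metabolism, 1 of 8 genes was 2-fold lower and 1 was 2-fold higher at 48 and 72 h. Of the 13525 genes, 1.04% were 2-fold lower at 48 h and 1.6% at 72 h. Higher differences of that size were found for 0.739% of the 13525 genes at 48 h and for 2.26% at 72 h. Slc14a2, the other urea transporter gene, was at -0.24 and -0.23. The lower gene was Slc7a1, a transporter of arginine and other cationic amino acids, which read 268 on doxycycline, then 208 (24 h), 88.5 (48 h) and 100 (72 h), although other Slc7a1 probe sets lay between -0.83 and -0.01 at 72 h. The higher gene was the water channel Aqp1, which read 667, 693, 1561 and 1805. The arginase Arg1 was higher at 24 h alone, at 154 against 40.8 on doxycycline, when 0.266% of all genes were 2-fold higher.

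Of the 13 other genes of cyclic GMP signalling, 1 was 2-fold lower at 48 and 72 h, against 1.04% and 1.6% of all genes. This was Nppb, which encodes the natriuretic peptide BNP; it read 419 on doxycycline, then 260 (24 h), 63.5 (48 h) and 50.7 (72 h). Prkg1, the sister kinase of Prkg2, was not lower, with 117, 140, 142 and 182. The receptor genes were not lower: Npr2 was at 0.58 and 0.53 at 48 and 72 h and the soluble guanylate cyclase subunit Gucy1a1 at 0.04 and 0.84, with its other probe set at -0.07 at 72 h.

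Of 17 other genes of pyrimidine nucleoside metabolism, 0 were 2-fold lower at 48 h and 1 at 72 h, against 1.04% and 1.6% of all genes. It was Slc29a1, an equilibrative nucleoside transporter that carries uridine, with 750.5 on doxycycline, then 494 (24 h), 371.5 (48 h) and 267 (72 h). Upp2, the related phosphorylase, differed by -0.12 at 72 h, but it was dim on doxycycline at 40.7 and had little room to fall. The uridine kinases Uck1 and Uck2 differed by 0.30 and 0.00 at 72 h, and the synthesis genes Cad and Umps by -0.20 and -0.18. Among integrin, laminin, fibronectin and EGF receptor genes listed for Tinagl1, 1 of 9 was 2-fold lower at 48 and 72 h, against 1.04% and 1.6% of all genes. This was the integrin subunit Itga5, which read 524, 292, 222 and 165 over the 4 arrays, with its other probe set at -1.10 at 72 h. Its partner Itgb1 was at -0.69 at 72 h, with other probe sets at -0.85 and -0.23. Egfr was at 0.19, with 5 other probe sets between -0.21 and 1.16.

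The PHLDA family and the interleukin-6 family held further genes with a similar course, and the urocortin family none. Phlda2 read 148 on doxycycline, then 92.3 (24 h), 40.7 (48 h) and 36.9 (72 h), and Phlda3 read 1926, 1584, 883 and 725. Phldb1 and Phldb2, listed for their similar names, differed by -0.54 and 0.24 at 72 h. Clcf1, a cytokine related to Lif, read 150, 136, 53.7 and 33.8, with its other probe set at -0.86 at 72 h. Of the 16 other genes of that list it alone was 2-fold lower at 48 and 72 h, against 1.04% and 1.6% of all genes. Socs3, a target and inhibitor of the pathway, was at -0.87 and -0.92 at 48 and 72 h, with other probe sets at -0.63 and -0.32 at 72 h. The receptor genes Lifr, Il6st and Osmr were at 0.75, 0.33 and 0.56 at 72 h. Their other probe sets were at -0.05 for Lifr, between 0.01 and 0.12 for Il6st and at 0.32 for Osmr. The urocortin receptor gene Crhr2 did not pass the filter on low values, and the measured relatives Ucn, Ucn3 and Crhr1 lay between -0.06 and 0.02 at 72 h. Ucn and Ucn3 read 30.5 and 31.3 on doxycycline, under the array median of 33.4, so a fall could hardly show in them. ERK output genes, a list that includes Phlda1 and Lif, had more such genes. That list too was chosen with earlier results of these data known. Of its 20 others 8 were 2-fold lower at 48 h and 12 at 72 h, against 1.04% and 1.6% of all genes. With the mean over probe sets the count at 72 h was 7.

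**Figure D4:**
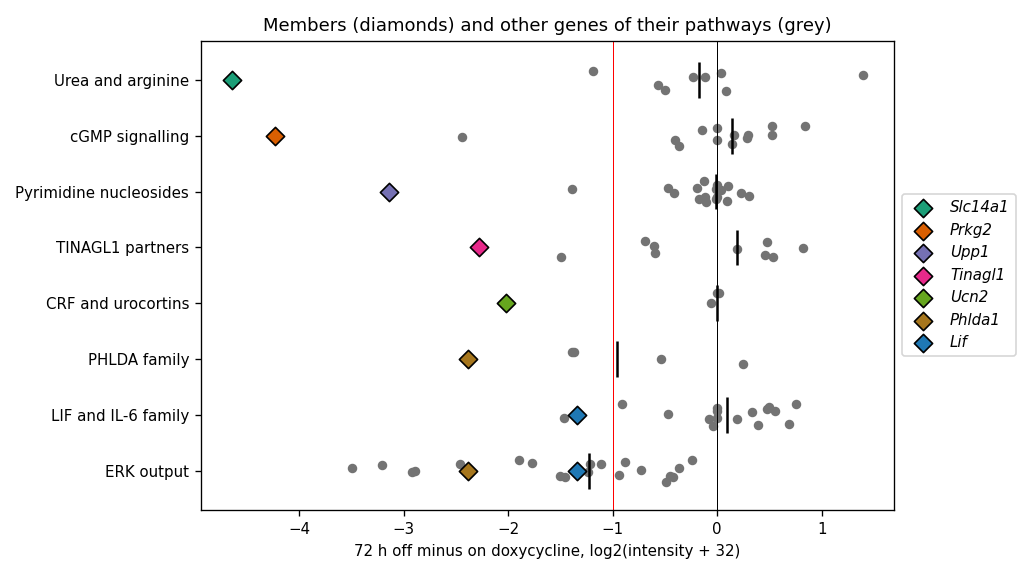
Difference between 72 h off and on doxycycline on the log2(intensity + 32) scale for the 7 genes (diamonds) and the other measured genes of each list (grey dots), with the median of the grey dots as a black bar. Slc14a1, Prkg2, Upp1, Tinagl1 and Ucn2 lie below every other gene of their lists, and Phlda1 below the other genes of the PHLDA family list. The 7 were chosen for low values at 72 h. In the interleukin-6 family Clcf1 lies at -1.47 beside Lif at -1.34.

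Summed markers of muscle, fat, fibroblasts, macrophages and endothelial cells were higher at 72 h than on doxycycline, those of fibroblasts, macrophages and fat also at 48 h. At 72 h 8 of 8 skeletal muscle, 7 of 9 fibroblast, 6 of 12 macrophage, 2 of 3 adipocyte and 1 of 6 endothelial markers that passed the filter were 2-fold higher, against 2.26% of all genes. The summed intensity of all measured markers at 24, 48 and 72 h was 200%, 89.7% and 1609% of control for muscle, 104%, 201% and 358% for fibroblasts, and 169%, 140% and 251% for macrophages. For endothelial cells it was 92.1%, 93.9% and 170%, and for adipocytes 50.8%, 127% and 432%. The higher adipocyte sum at 48 h was carried by Fabp4, at 323 against 203 on doxycycline. Of the 3 adipocyte markers that passed the filter, 2 were below control at 48 h, and their median difference was -0.07. Keratinocyte, kidney and erythroid markers stayed between 81.0% and 104%. No marker was at 0, since no deposited value is. The part of these cells in the differences was not tested.

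The melanocyte-lineage markers summed to 94.6%, 130% and 110% of control, with 78.6% to 86.1% of the sum on each array coming from Sox10. Without Sox10 the sum was 87.6%, 161% and 156% of control. Sox10, a transcription factor of melanocytes and Schwann cells, read 3770.5 on doxycycline, then 3613 (24 h), 4681 (48 h) and 3844 (72 h), with other probe sets at -0.55 and -0.09 at 72 h. S100b, a marker of the same cells, read 362, 327, 724 and 575. The pigment genes Tyr, Tyrp1 and Mlana did not pass the filter on low values. Of the lineage genes that did, Pmel was 2-fold higher at 72 h, at 199.7 against 73.1 on doxycycline, and Mitf was at 0.84. Dct and Mc1r were at -0.21 and -0.24 at that time.

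**Figure D5:**
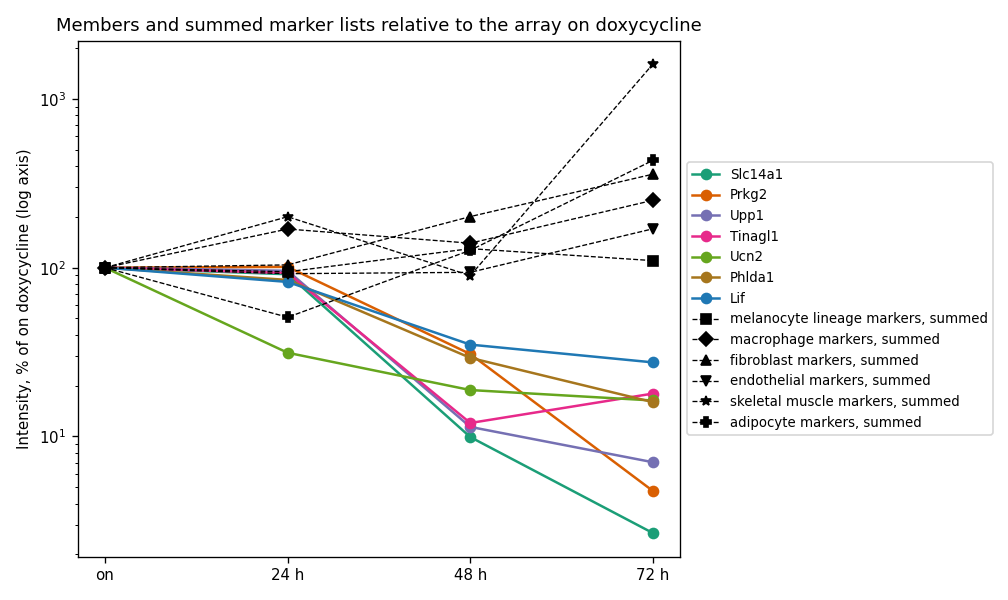
Intensity as a percentage of the array on doxycycline (log axis) for the brightest probe set of each of the 7 genes (solid lines) and for the summed markers of 6 cell types (dashed lines). The 7 genes end between 2.68% and 27.5% at 72 h, melanocyte-lineage markers at 110% and muscle markers at 1609%.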

How the data were processed

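RNA of 4 tumours, 1 array per group as the labels' treatment gives it, was measured on an Affymetrix mouse array from 10 ug of total RNA, per the labels' protocols. The deposited values are 1 linear intensity per probe set and array. Per the submitters' processing notes, MAS5 and RMA were involved, but their versions, roles and the scaling between arrays are not stated there; 48.0% of 45037 probe sets had the same intensity on at least 2 arrays, for a reason that is unknown.

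Of the probe sets, 34945 had 1 symbol in the platform annotation, 932 several and 9160 were not listed; only the first kind was used. The log2 of the deposited intensity plus 32 was taken, the probe set of a gene with the highest mean was used, and genes below the 40th percentile of all probe sets' means (an intensity of 24.8) were left out. No further normalization and no test was applied, as no group has a replicate; a difference of at least 1 was counted as 2-fold. The counting was tried on simulated data, made from the control array with little noise and with large changes planted in bright genes. That checks the code and says nothing about the calls made on these arrays. The 7 genes, the pathway and marker lists and the alternatives were chosen with earlier results of these data known. Every measured gene of the pathway lists other than ERK output was open to naming, and those named are a selection. For likeness the named genes are the 5 nearest to the median course and the nearest to each gene. The promoter motifs, and Plaur, Fabp4 and the single melanocyte-lineage markers, were picked after their values were seen. All 7 genes matched RefSeq by gene ID and symbol. Python 3.11.15, pandas 2.3.3 and NumPy 2.4.6 were used.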

Additional observations from a re-analysis of the deposited data

How the results depend on the processing

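The alternatives were pseudocounts of 8, of 4 times 32 and of none, quantile normalization, median centring, the mean over a gene's probe sets, the removal of _x_at and _s_at probe sets, other level filters, and the 24 h array as the starting level. The counts of 7 genes at 48 and 72 h stayed between 5 and 7 of 7 under these, or 6 of 6 without Ucn2. The medians of the 7 lay between -2.41 and -1.63 at 48 h and between -2.65 and -1.88 at 72 h. Without Ucn2, removed with the _s_at probe sets, the medians were -2.19 at 48 h and -2.76 at 72 h. At 24 h the count was 0, not 1, with a pseudocount 4 times as large, where Ucn2 was at -0.94, and also 0 without _s_at probe sets, which removes Ucn2. With the larger pseudocount Lif stayed short of 2-fold (-0.65 at 48 h and -0.74 at 72 h). The number of all genes 2-fold lower at 24 h was 9, and 18, 1 and 27 with pseudocounts of 8, of 4 times 32 and of none and 5 with the mean over probe sets. At 48 h it was 140, and 58 with a pseudocount 4 times as large and 81 with the mean over probe sets; at 72 h it was 217, and 115 and 139 in turn. Of the 7 genes' differences from the control, 139 of 144 kept their side of the 2-fold line and none changed sign past it. The others were Lif at 48 and 72 h, with the larger pseudocount or the mean over probe sets, and Ucn2 at 24 h with the larger pseudocount. The genes were chosen on the control, 48 and 72 h arrays, so differences that stayed low there describe the choice. The steps were recomputed under alternatives added after the data had been seen, and 93 of 96 kept their side; Slc14a1 was at -0.91 from 48 to 72 h with a pseudocount 4 times as large, and Lif crossed the line from 24 to 48 h with pseudocounts of 8 (-1.13) and none (-1.23). Counts of lower genes in the pathway lists and their total moved by over 1.5 times in 23 of 189 cases, all of them with the larger or no pseudocount, the mean over probe sets or the removal of _x_at and _s_at probe sets. No paired analysis was possible because each group has 1 array. Intensities near the array median, such as those of Upp1, Ucn2 and Lif at 72 h, may hold background, so their log2 differences are limited by it.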

Other observations

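Some genes of the pathway lists were already lower at 24 h. Of 97 list genes that passed the filter on low values, 6 lay at -0.50 or below at 24 h, against 0.917% of all genes: Ucn2 at -1.39, Itga5 at -0.78, Nppb at -0.63, Slc29a1 at -0.57, Plaur, the urokinase receptor, at -0.55 and Phlda2 at -0.53. The 97 include the ERK output list and all the chosen genes, of which Ucn2 is one. Since the choice used the control array, the comparison with all genes is partly set by it. All 6 were lower still at 72 h, with Plaur at -1.90. This line at -0.50 was chosen after the values had been seen, and no test was made.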
